A study of Mus musculus with 9 samples.

Results

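Cells given oxyhemoglobin together with NTR1 were compared with untreated cells by RNA sequencing, using every gene with enough counts to test. The comparison holds 6 of the 9 libraries of the series, chosen by the treatment in their labels, 3 untreated and 3 treated. Of 54232 entries in the deposited count table, 13810 genes passed the filter on low counts. All groups were wild-type mouse cells grown in DMEM with fetal bovine serum, named HT22 in the sample titles, a line derived from mouse hippocampal neurons, and HT-4 in the cell type field. Control cells received no intervention. Cells of the treated group, labelled ganyu and here called Hb+NTR1, received oxyhemoglobin and NTR1. Cells of the remaining group, here Hb, received oxyhemoglobin alone. The agent is NTR1 in the treatment text and NGR1 in the title of the series, which links it to ITGA11 and to neuronal apoptosis after subarachnoid hemorrhage. The labels used here give neither dose nor duration. No group received the agent alone, so what NTR1 does without oxyhemoglobin cannot be told apart from its action with it.

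Oxyhemoglobin, hemoglobin that carries oxygen, is set free when red cells lyse after a bleed. Its heme is degraded by heme oxygenase 1, and the iron set free is stored in ferritin. Oxidized heme and other reactive molecules release the transcription factor NRF2 from its inhibitor KEAP1, and NRF2 then turns on genes for glutathione synthesis and detoxification. Lysosomes, which break down endocytosed and autophagic cargo, are made under the control of TFEB-family factors that bind E-box motifs in the promoters of their genes. A shortage of amino acids or stress in the endoplasmic reticulum acts through the factor ATF4 to raise genes of amino acid synthesis, uptake and tRNA charging. Fibroblasts and many adherent cultured cells secrete a collagen-rich matrix, whose fibrils are cross-linked by lysyl oxidase.

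Levels are counts scaled to a library total of 1000000 after TMM normalisation (CPM), which is not corrected for gene length, with SD over n = 3 libraries. A log2 fold change is Hb+NTR1 minus control, with its SE, and a gene is called when its p from the quasi-likelihood test of edgeR, after Benjamini-Hochberg adjustment over all 13810 genes, is under 0.05. List members with too few counts to test are in neither direction of a count. Whether replicates were grown as separate cultures is not said in the labels. The p-values therefore cover the spread among these samples alone, which may be technical. In bulk RNA, fewer cells of a type and less RNA per cell cannot be told apart. Control libraries held 14369813 to 16893746 counts, Hb libraries 13415648 to 14728662 and Hb+NTR1 libraries 13945507 to 14280053. The leading principal component held 79.4% of the variance and separated the Hb+NTR1 libraries from the other 6. Hb replicate 2 stood farthest from its own group, and leaving it out raised the count of called genes from 8782 to 9358.

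The neuronal label was checked against marker genes. Of 28 neuron markers, 18 lay under 1 CPM in both groups, and Map2, Snap25, Slc17a6 and Gad1 had no count in any of the 6 libraries. Their summed level, on the library total without TMM factors as for all marker sums, was 252 to 264 CPM in control and 171 to 176 CPM in Hb+NTR1. Ncam1, an adhesion molecule, was detected at 68.3 ± 3.74 CPM in control and 70.3 ± 0.917 CPM in Hb+NTR1. Tubb3, the neuronal beta tubulin, had 31.6, 34.3 and 32.0 CPM in control and 4.93, 5.76 and 5.08 CPM in Hb+NTR1, a fall of 2.63 ± 0.123 on the log2 scale (edgeR adjusted p = 6.94e-15). Fibroblast markers summed to 13621 to 14563 CPM in control, most of it from Col1a2, Col1a1 and Col3a1, at means of 8875, 3535 and 1509 CPM. Of the same list, Fap was at 0 and Lum at a mean of 0.127 CPM in control. Astrocyte markers summed to 400 to 431 CPM in control, most of it from Slc1a3, Gja1 and Sox9, at means of 206, 114 and 78.6 CPM. Of that list, Aqp4 was at 0 and Gfap at a mean of 0.253 CPM in control. Oligodendrocyte markers summed to 291 to 310 CPM in control, almost all from Cspg4 and Pdgfra, at means of 187 and 107 CPM. Pdgfra is also on the fibroblast list, and Mag, Olig2 and Sox10 had no count in any of the 6 libraries. With 18 of 28 neuron markers under 1 CPM, the data do not bear out a mature neuronal identity. Of the microglia and macrophage markers, P2ry12 and Tyrobp were at 0. The summed level of all 11 markers of that list was 21.1 to 28.5 CPM in control and 49.6 to 51.6 CPM in Hb+NTR1, and it combined opposite changes of the 2 members that could be tested. Tmem119, a membrane protein used to mark microglia, fell 6.14-fold from 20.6 ± 4.13 to 3.33 ± 0.100 CPM (edgeR adjusted p = 9e-13). Cd68, described with the lysosomal genes, rose. Of those with too few counts to test, Aif1, a macrophage calcium-binding protein, was at 0 to 0.139 CPM in control and 0.560 to 0.645 CPM in Hb+NTR1. Erythroid markers summed to 1.07 to 1.88 CPM in control and 1.15 to 2.61 CPM in Hb+NTR1.

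The treated and untreated cells differed at a majority of the genes tested. In all, 8782 genes were called, or 63.6% of those tested, with 4340 (31.4%) higher and 4442 (32.2%) lower in Hb+NTR1. These shares are the background for the counts of list members given below. The median log2 fold change over all tested genes was -0.0042. Of the called genes, 4077 (46.4%) changed less than 1.5-fold, and the median size was 0.62 on the log2 scale. At least 2-fold changes were found in 2331 called genes (16.9%), 951 higher (6.89%) and 1380 lower (9.99%). At least 8-fold changes numbered 90 higher and 131 lower. The 3 libraries of each group did not overlap in 9649 genes (69.9%), of which 4804 (34.8%) were higher and 4845 (35.1%) lower. For the same genes, 504 (3.65%) were called between Hb and control, and 8607 (62.3%) between Hb+NTR1 and Hb. Each of these comparisons shares a group of libraries with the comparison described here, so their values stand beside it only as levels.

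**Figure D1:**
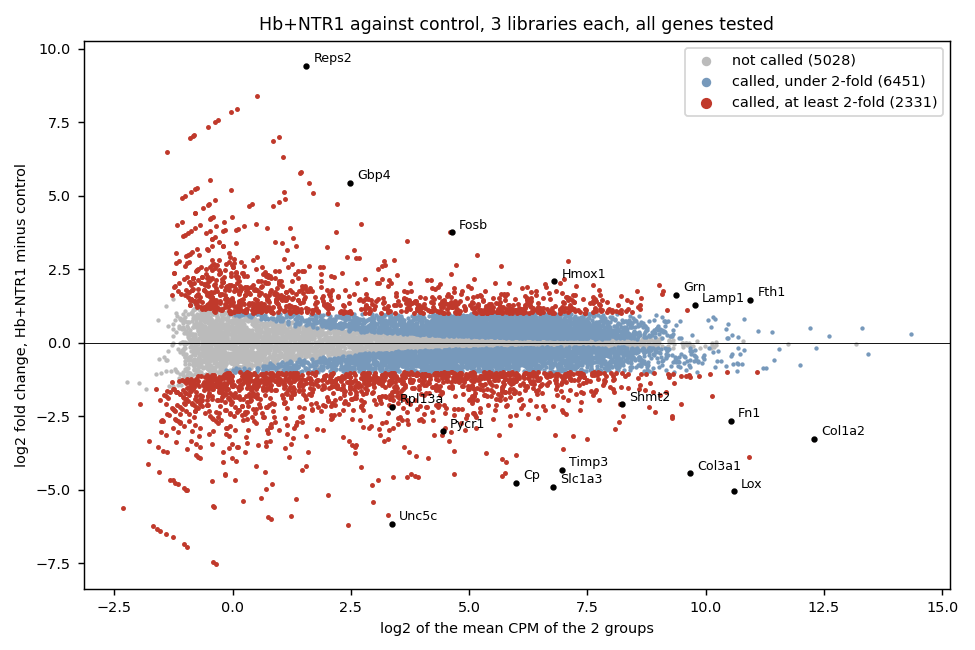
Log2 fold change of Hb+NTR1 over control on the y axis against the log2 of the mean CPM of both groups on the x axis, 1 point for each of the 13810 genes tested, with 3 libraries a group. Red points are the 2331 genes called and changed at least 2-fold, blue points are called genes with smaller changes, grey points were not called, and black points carry a gene's name. Fitted changes of genes with hardly any control counts, such as Reps2, are not bounds. The matrix genes Col3a1 and Lox lie at the lower right, far from the cloud of genes at similar levels.

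Among the genes with the largest rises, several were at or near absence in control. Reps2, which encodes an endocytosis adaptor, had 0 counts in all 3 control libraries and 90, 65 and 99 counts in Hb+NTR1. It was at least 28.1-fold higher in Hb+NTR1, taking 3 counts in each control library as the limit that a count of 0 allows, for counting error only. Gbp4, a guanylate-binding protein of the interferon response, had 0.0602, 0.399 and 0.286 CPM in control and 11.2, 11.7 and 9.61 CPM in Hb+NTR1. Gbp genes are near-identical in parts, so reads of Gbp4 may be shared with its relatives. Lcp1, the actin-bundling L-plastin, had 0.542, 0.798 and 0.931 CPM in control and 11.7, 13.3 and 12.3 CPM in Hb+NTR1, a 16.4-fold rise. Aox1, an aldehyde oxidase, rose 11.1-fold from 2.09 ± 0.647 to 23.6 ± 2.30 CPM (edgeR adjusted p = 4.11e-14). Gch1, the enzyme that starts tetrahydrobiopterin synthesis, rose 8.81-fold from 1.20 ± 0.524 to 10.7 ± 0.867 CPM. None of these genes was called between Hb and control, with Aox1 at 3.04 ± 0.518 CPM and Gch1 at 1.37 ± 0.241 CPM.

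Among the largest falls, Unc5c, a receptor for the axon guidance cue netrin, had 21.5, 20.7 and 19.1 CPM in control and 0.0685, 0.492 and 0.278 CPM in Hb+NTR1. The fitted fall was 71.4-fold (log2 fold change -6.16 ± 0.261, edgeR adjusted p = 1.15e-15), and Hb had 16.5 ± 2.61 CPM. Its size is uncertain, since the Hb+NTR1 libraries held only 1, 7 and 4 counts of Unc5c. Slc1a3, a glutamate transporter, had 227, 199 and 207 CPM in control and 6.65, 7.59 and 6.96 CPM in Hb+NTR1, with 123 ± 12.3 CPM in Hb. Cp, which encodes the copper-carrying ferroxidase ceruloplasmin, fell 27.0-fold from 123 ± 1.59 to 4.54 ± 0.374 CPM. Il1rl1, the receptor of interleukin 33, fell 25.5-fold from 16.1 ± 0.815 to 0.627 ± 0.285 CPM. The rule that picked these genes took only those with no overlap of libraries and at least 5 CPM in the higher group.

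The extracellular matrix genes held many of the largest falls. Of 31 genes of collagens and collagen processing tested, of 34 listed, 23 were lower, 4 higher and 4 not called, with 17 at least 2-fold lower and 1 at least 2-fold higher. Their median log2 fold change was -1.14, against -0.0042 over all genes. Lox, which encodes the lysyl oxidase that cross-links collagen and elastin (chr18:52516067-52529867, minus strand, GRCm38), had 3001, 2945 and 3074 CPM in control and 88.1, 80.7 and 104 CPM in Hb+NTR1. The treated libraries were 33.0-fold lower (log2 fold change -5.05 ± 0.0911, edgeR adjusted p = 1.78e-22), with 2199 ± 156 CPM in Hb between both groups. Col3a1, the chain of type III collagen (chr1:45311538-45349706, plus strand), had 1553, 1461 and 1627 CPM in control and 72.6, 73.0 and 67.5 CPM in Hb+NTR1. Its log2 fold change was -4.44 ± 0.0737 (edgeR adjusted p = 4.89e-23), while Hb, at 1771 ± 40.1 CPM, was not called against control (edgeR adjusted p = 0.0916).

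The chains of type I collagen fell as well. Col1a1 (chr11:94936224-94953042, plus strand) had 3629, 3401 and 3842 CPM in control and 252, 258 and 226 CPM in Hb+NTR1, 14.8-fold lower. Col1a2 (chr6:4504814-4541544, plus strand) had 9284, 8854 and 9156 CPM in control and 949, 970.4 and 914 CPM in Hb+NTR1, 9.63-fold lower (edgeR adjusted p = 3.87e-21). In both genes the Hb mean lay below control, at 2598 ± 262 CPM for Col1a1 and 7381 ± 423 CPM for Col1a2. Col6a2, a chain of the microfibrillar type VI collagen, fell from 324 ± 8.39 to 33.7 ± 3.19 CPM. Serpinh1, the chaperone that folds procollagen, fell 2.20-fold from 1270.5 ± 2.46 to 578 ± 43.6 CPM. The basement membrane collagen gene Col4a1 went the other way by a small amount, from 172 ± 5.39 to 203 ± 9.72 CPM (edgeR adjusted p = 0.0021). Plod2, which hydroxylates collagen lysines, rose 2.37-fold from 46.5 ± 1.03 to 110.0 ± 6.12 CPM and was the member at least 2-fold higher.

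Matrix glycoproteins and proteoglycans had 23 lower, 3 higher and 6 not called of 32 tested (45 listed), 17 of them at least 2-fold lower, at a median log2 of -1.20. Fn1, fibronectin, had 2748, 2471 and 2447 CPM in control and 399, 401 and 416 CPM in Hb+NTR1, a 6.30-fold fall. The Hb libraries of Fn1 spread widely, at 2006 ± 420.3 CPM, and did not differ from control by the test (edgeR adjusted p = 0.112). Prelp, a leucine-rich proteoglycan, had 17.3, 15.5 and 13.0 CPM in control and 0.411, 0.00 and 0.627 CPM in Hb+NTR1. Ogn and Dcn, which encode the small proteoglycans osteoglycin and decorin, fell 23.2-fold and 11.1-fold. Postn, periostin, fell 10.1-fold from 16.7 ± 2.96 to 1.64 ± 0.168 CPM. Thbs1, thrombospondin 1, had a different order of groups. It had 289.6, 229 and 197 CPM in control, 98.6, 105 and 116 CPM in Hb+NTR1 and 73.5 ± 3.31 CPM in Hb, so it was lowest in Hb and fell 2.24-fold in Hb+NTR1 against control.

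Matrix proteases and their inhibitors had 14 lower, 4 higher and 3 not called of 21 tested (32 listed). Timp3, an inhibitor of matrix metalloproteinases, had 234, 243 and 231 CPM in control and 11.4, 11.5 and 12.7 CPM in Hb+NTR1. This 19.9-fold fall (edgeR adjusted p = 1.57e-21) compared with 162 ± 16.2 CPM in Hb. The aggrecanases Adamts5 and Adamts1 fell 7.67-fold, from 478 ± 30.9 to 62.3 ± 1.87 CPM, and 4.92-fold, from 270.2 ± 16.1 to 55.0 ± 1.20 CPM. Plat, the tissue plasminogen activator, was among the members that rose, 2.60-fold from 28.0 ± 1.63 to 72.9 ± 1.33 CPM. Of 9 fibroblast markers tested (11 listed), which share members with the collagen list, 9 were lower and 8 at least 2-fold so, at a median log2 of -3.34. Their summed level over the whole list was 1310 to 1434 CPM in Hb+NTR1. The part that a change in the make-up of the culture had in these falls was not tested.

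Genes of the contractile cytoskeleton that depend on the factor SRF also moved down. Of 19 tested (24 listed), 16 were lower, 0 higher and 3 not called, with 9 at least 2-fold lower and a median log2 of -0.83. Acta2, smooth muscle actin, had 26.3, 19.8 and 15.5 CPM in control and 5.35, 5.20 and 5.50 CPM in Hb+NTR1, 3.85-fold lower, with 9.25 ± 1.01 CPM in Hb. Zyx, the focal adhesion protein zyxin, fell 2.57-fold from 243 ± 17.3 to 94.4 ± 2.37 CPM, while Hb stayed near control at 236 ± 24.0 CPM. YAP target genes were split, with 8 higher, 11 lower and 0 not called of 19 tested (22 listed). The secreted CCN proteins led the rises, with Cyr61 at 388, 386 and 332 CPM in control and 749, 838 and 801 CPM in Hb+NTR1, 2.16-fold higher. In Hb, Cyr61 was at 251 ± 38.9 CPM, below both other groups. The junction protein gene Amotl2 and the coagulation starter F3 fell 2.35-fold and 3.14-fold. Tgfb2, another listed YAP target and a TGF-beta ligand, fell from 3.65 ± 0.208 to 1.05 ± 0.496 CPM, while its relative Tgfb1 rose 2.58-fold from 8.24 ± 0.454 to 21.3 ± 2.14 CPM.

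Growth factors and their receptors changed in both directions. Of 26 receptor tyrosine kinases and ligands tested (38 listed), 8 were higher, 13 lower and 5 not called. Pdgfrb, a receptor of platelet-derived growth factor, had 112, 98.0 and 103 CPM in control and 6.17, 6.39 and 6.13 CPM in Hb+NTR1. It fell 16.7-fold (edgeR adjusted p = 1.26e-18), and Hb had 85.2 ± 13.8 CPM. Fgf7, a growth factor of mesenchymal cells, fell 5.54-fold from 52.4 ± 3.32 to 9.46 ± 1.45 CPM. The EGF receptor ligands Ereg and Hbegf rose. Ereg had 8.73, 7.31 and 8.16 CPM in control and 35.8, 37.9 and 49.3 CPM in Hb+NTR1, and Hbegf rose 3.55-fold. Egfr itself, their receptor, fell 2.34-fold from 14.5 ± 0.571 to 6.18 ± 0.895 CPM. Of the 9 IGF genes tested (16 listed), 5 were lower, 3 higher and 1 not called. Igfbp4, an IGF-binding protein, had 44.6, 51.9 and 46.1 CPM in control and 3.36, 3.93 and 3.90 CPM in Hb+NTR1. Igf1, the ligand, fell 11.0-fold from 10.5 ± 1.42 to 0.945 ± 0.488 CPM.

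**Figure D2:**
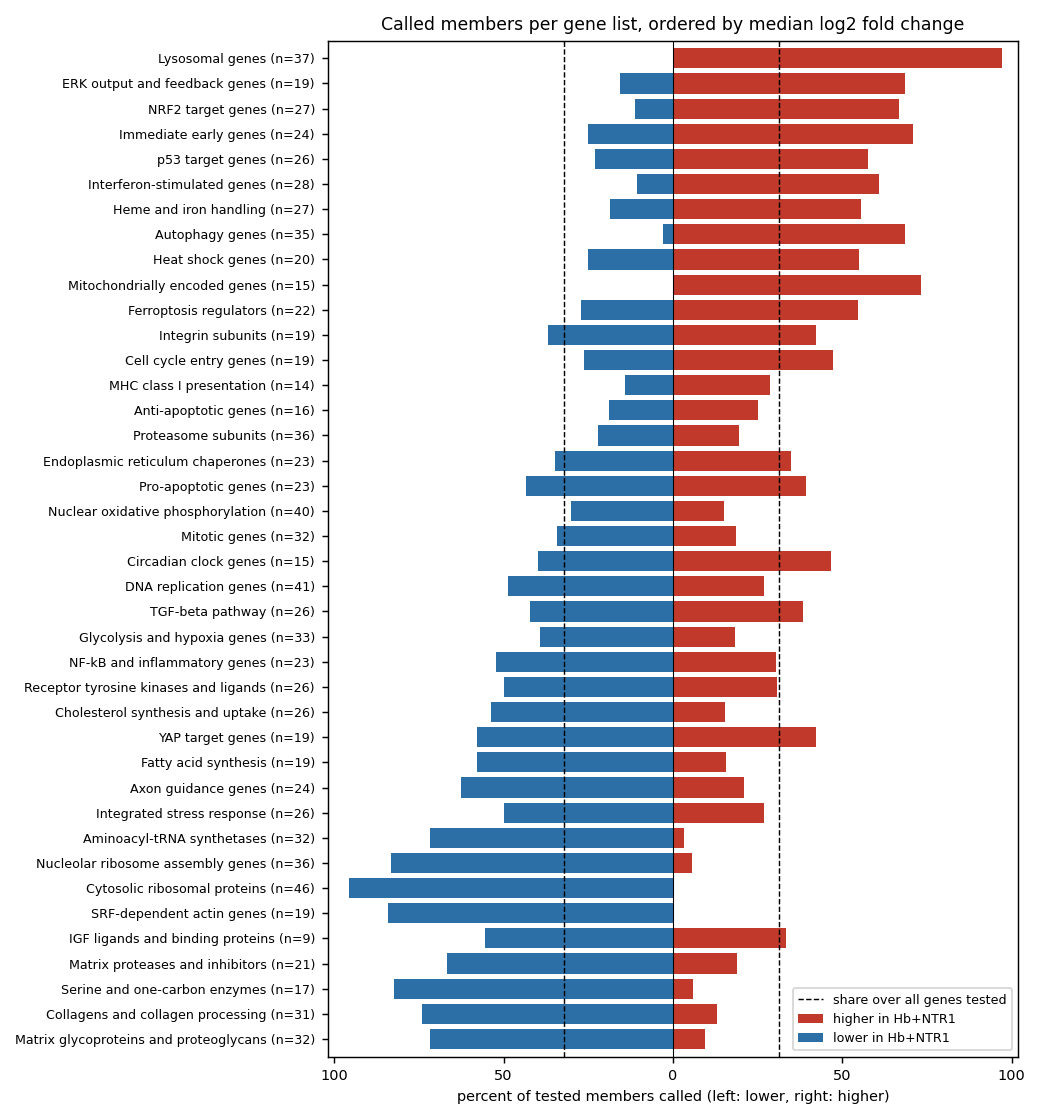
Percent of the tested members of each gene list called higher (right, red) or lower (left, blue) in Hb+NTR1 against control, with the number tested in each list beside its name and lists ordered by median log2 fold change. The dashed lines mark the shares over all genes tested, 31.4% higher and 32.2% lower. Lysosomal genes stand at the higher end with 36 of 37 members called higher, and cytosolic ribosomal proteins have 0 of 46 called higher.

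Lysosomal genes were higher almost without exception. Of 37 tested (41 listed), 36 were higher, 0 lower and 1, Ctsz, not called, with 20 at least 2-fold higher and a median log2 of 1.10. The increases spanned membrane proteins, hydrolases and the proton pump. Lamp1, the abundant lysosomal membrane glycoprotein (chr8:13159161-13175338, plus strand), had 467, 534 and 526 CPM in control and 1237, 1308 and 1162 CPM in Hb+NTR1. It rose 2.43-fold (log2 fold change 1.28 ± 0.0690, edgeR adjusted p = 9.61e-14), with 616 ± 31.1 CPM in Hb. Grn, progranulin, a secreted protein that is processed in lysosomes, had 336, 310.0 and 327 CPM in control and 983, 1059 and 989 CPM in Hb+NTR1, 3.12-fold higher. Gla, the alpha-galactosidase that degrades globotriaosylceramide, had 33.8, 42.2 and 40.4 CPM in control and 129.9, 135 and 130.3 CPM in Hb+NTR1. It rose 3.40-fold, and Hb, at 44.0 ± 2.64 CPM, was not called against control (edgeR adjusted p = 0.272).

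Cd68, a lysosomal glycoprotein often used to mark macrophages, had 2.83, 3.72 and 3.51 CPM in control and 43.9, 44.7 and 46.7 CPM in Hb+NTR1, a 13.5-fold rise (edgeR adjusted p = 1.6e-17). The macrophage marker list otherwise held the fall of Tmem119 and 9 members with too few counts to test, as given above, and the part of other cells in the rise of Cd68 was not tested. Neu1, the lysosomal sialidase, rose 3.37-fold from 18.4 ± 1.17 to 61.9 ± 4.31 CPM. The proton pump subunits Atp6v0a1 and Atp6v1h rose 3.05-fold and 2.83-fold, and the protease Ctsb rose 2.87-fold from 204 ± 6.29 to 585 ± 23 CPM. Tfeb, a regulator of these genes, was not called, at 10.7 ± 1.02 CPM in control and 8.66 ± 1.4 CPM in Hb+NTR1 (edgeR adjusted p = 0.0723). Autophagy genes had 24 higher, 1 lower and 10 not called of 35, at a median log2 of 0.38. Sqstm1, the cargo receptor p62, rose 2.17-fold from 493 ± 22.2 to 1068 ± 41.2 CPM, and Gabarapl2, an ATG8-family protein of the autophagosome, rose 2.23-fold. Map1lc3a, another ATG8-family gene, was the member that fell, 1.89-fold from 13.4 ± 1.17 to 7.11 ± 0.963 CPM.

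Several promoter motifs were counted in every gene list as a description, and only those of the TFEB family, NRF2 and ATF4 are described here. Among those left out, the letters TTTGAA were in 20 of 27 mitotic genes with a promoter (74.1%), against 14.5% of tested genes. Promoters are RefSeq sequences of GRCm38.p6 from 250 bases before to 50 bases after a gene's start, found for 9549 of the genes tested. All motif counts and shares are of genes, and a gene counts when any of its promoters holds the motif. The E-box, with the letters CACGTG on either strand, was in 10 of the 28 lysosomal genes with a promoter (35.7%). It was in 11.7% of tested genes with a promoter and in 8.09% of all 27025 genes with one. Similar shares were found in other lists, among them 1 that was mostly lower, with matches in 7 of 20 p53 target promoters, 4 of 12 clock gene promoters and 9 of 30 promoters of nucleolar ribosome assembly genes. Ctsd and Cln3, not shown, hold 2 matches each. The stretches below, in capitals at each match, show other members that carry more than 1 copy. They are Lamp1 (chr8:13159085-13159166, plus strand), Gla (chrX:134601179-134601247, minus strand), Mcoln1 (chr8:3500433-3500494, plus strand) and Ctsa (chr2:164833746-164833798, plus strand). Mcoln1 encodes a lysosomal calcium channel and Ctsa encodes cathepsin A.
Lamp1: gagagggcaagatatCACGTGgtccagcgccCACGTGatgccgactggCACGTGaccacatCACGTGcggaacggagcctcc
Gla: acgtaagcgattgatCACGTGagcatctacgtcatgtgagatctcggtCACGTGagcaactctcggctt
Mcoln1: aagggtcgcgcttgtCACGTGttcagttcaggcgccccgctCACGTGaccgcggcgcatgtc
Ctsa: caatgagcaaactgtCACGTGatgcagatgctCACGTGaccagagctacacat
Lamp1 holds 4 matches in 82 bases and the other 3 hold 2 each. A match is a description of the letters and not a measured binding site.

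Genes of the antioxidant response were higher as a list, with marked exceptions. Of 27 NRF2 target genes tested, 18 were higher, 3 lower and 6 not called, with 11 at least 2-fold higher and a median log2 of 0.79. Hmox1, heme oxygenase 1 (chr8:75093621-75100589, plus strand), had 43.8, 42.4 and 40.9 CPM in control and 163, 194 and 186 CPM in Hb+NTR1. It rose 4.26-fold (log2 fold change 2.09 ± 0.0802, edgeR adjusted p = 1.89e-16), and the Hb libraries lay between both groups at 86.8 ± 7.93 CPM. Txnrd1, the cytosolic thioredoxin reductase (chr10:82833951-82897712, plus strand), had 258, 259.6 and 262 CPM in control and 783, 801 and 866 CPM in Hb+NTR1. Srxn1, which repairs oxidized peroxiredoxins, had 97.6, 93.7 and 99.6 CPM in control and 320.0, 330.0 and 354 CPM in Hb+NTR1. Both rose over 3-fold, by 3.14-fold for Txnrd1 and 3.45-fold for Srxn1, from Hb levels of 319.5 ± 9.11 and 121 ± 1.5 CPM.

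Nqo1, a quinone reductase, rose 2.96-fold from 66.7 ± 13.8 to 197 ± 2.21 CPM. Both subunits of glutamate-cysteine ligase, the first enzyme of glutathione synthesis, rose, Gclm from 106 ± 11.6 to 269 ± 8.17 CPM and Gclc from 68.4 ± 5.88 to 199.7 ± 3.38 CPM. Nfe2l2, which encodes NRF2 itself and is not in that list, rose 2.36-fold from 66.8 ± 7.57 to 157 ± 4.72 CPM, while Hb had 60.6 ± 1.42 CPM. Gsta4, a glutathione transferase for lipid peroxidation products, went the other way. It had 91.9, 108 and 118 CPM in control, 27.4, 28.7 and 27.1 CPM in Hb+NTR1 and 264 ± 36.4 CPM in Hb. It was therefore highest in Hb and lowest in Hb+NTR1, 3.82-fold below control (edgeR adjusted p = 8.1e-14), although reads may be shared with related Gsta genes. Slc7a11, the cystine transporter that supplies glutathione synthesis, fell 1.47-fold from 34.1 ± 1.42 to 23.2 ± 1.80 CPM.

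The antioxidant response element, searched as TGACNNNGC on either strand, was in 8 of the 21 NRF2 target genes with a promoter (38.1%). It was in 17.1% of tested genes with a promoter and in 14% of all genes with one. Its share was 33.3% of 12 clock gene promoters and 32.1% of 28 lysosomal promoters. Below, capitals mark it in 2 members that rose, Gclm (chr3:122245408-122245446, plus strand) and Srxn1 (chr2:152105537-152105573, plus strand), and in Me1 (chr9:86695897-86695935, minus strand), which encodes malic enzyme and was not called.
Gclm: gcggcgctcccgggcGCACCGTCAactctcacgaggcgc
Srxn1: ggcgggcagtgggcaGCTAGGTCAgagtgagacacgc
Me1: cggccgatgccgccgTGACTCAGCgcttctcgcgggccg
The motif is thus in promoters of list members with and without a called change.

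Heme and iron handling genes had 15 higher, 5 lower and 7 not called of 27 tested (32 listed), at a median log2 of 0.40. Fth1, the ferritin heavy chain (chr19:9980598-9985098, plus strand), had 1027, 1002 and 1119 CPM in control and 2717, 3006 and 2930.3 CPM in Hb+NTR1, with 1752 ± 223 CPM in Hb. It rose 2.75-fold (edgeR adjusted p = 1.08e-13), and Ftl1, the light chain, rose 2.87-fold from 6.32 ± 1.12 to 18.3 ± 1.84 CPM. Ferritin genes have many processed pseudogenes, so their levels are uncertain. Slc48a1, which carries heme out of lysosomes, rose 2.18-fold from 163 ± 2.58 to 354 ± 18.4 CPM, and Flvcr1, a heme exporter, rose 1.93-fold. Slc40a1, the iron exporter ferroportin, had 3, 0 and 0 counts in control and 19, 25 and 15 counts in Hb+NTR1, and the control counts are too few for a fold. Tfrc, the transferrin receptor that brings iron in, had 304, 317 and 316 CPM in control and 289, 268 and 304 CPM in Hb+NTR1, and the ranges met at 304 CPM with no call (edgeR adjusted p = 0.0924). In Hb, Tfrc was at 175 ± 8.09 CPM, below both other groups. Lrp1, the endocytic receptor that takes up the heme carrier hemopexin, fell 3.03-fold from 636 ± 23.1 to 209.6 ± 11.1 CPM. Ferroptosis regulators, which share members with both lists, had 12 higher, 6 lower and 4 not called of 22 tested (25 listed). Ptgs2, cyclooxygenase 2, rose 2.57-fold, and Gpx4, the peroxidase that restrains ferroptosis, was not called, with a log2 fold change of -0.07.

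Genes of the ATF4 response were lower more often than higher. Of 26 integrated stress response genes tested (28 listed), 13 were lower, 7 higher and 6 not called, at a median log2 of -0.49. Atf4 had 652, 672 and 657 CPM in control and 409.5, 419 and 447 CPM in Hb+NTR1, a 1.55-fold fall (edgeR adjusted p = 1.81e-08). Trib3, a pseudokinase of the response, had 84.8, 89.1 and 88.7 CPM in control and 30.9, 34.0 and 37.5 CPM in Hb+NTR1, 2.56-fold lower. Slc7a5, the leucine transporter, fell 2.80-fold from 437 ± 5.13 to 156 ± 9.12 CPM, and Atf5 fell 3.05-fold from 109 ± 0.727 to 35.9 ± 2.45 CPM. Ddit3, which encodes the factor CHOP, was among the 7 that rose, from 29.4, 29.2 and 33.5 CPM to 52.8, 47.6 and 48.3 CPM, 1.62-fold higher (edgeR adjusted p = 8.83e-07). In Hb the named ATF4 targets lay near control, with Trib3 at 83.9 ± 11.6 CPM and Slc7a5 at 450.0 ± 30.7 CPM.

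Serine and one-carbon enzymes were mostly lower, with 14 lower, 1 higher and 2 not called of 17 tested (19 listed), 9 of them at least 2-fold lower, at a median log2 of -1.05. Pycr1, an enzyme of proline synthesis (chr11:120635712-120643769, minus strand), had 41.5, 36.2 and 37.9 CPM in control and 4.87, 5.48 and 4.04 CPM in Hb+NTR1. It was 8.03-fold lower in Hb+NTR1 (log2 fold change -3.01 ± 0.125, edgeR adjusted p = 8.4e-16). Shmt2, the mitochondrial serine hydroxymethyltransferase (chr10:127517123-127522444, minus strand), had 498, 495 and 478 CPM in control and 104, 118 and 121 CPM in Hb+NTR1, 4.28-fold lower. Cth, which makes cysteine from cystathionine, fell 5.80-fold from 60.5 ± 6.07 to 10.4 ± 0.0940 CPM. Phgdh and Psat1, the enzymes that start serine synthesis, fell 2.07-fold and 1.92-fold. For all of these the Hb libraries were not called against control, with Pycr1 at 35.3 ± 3.46 CPM and Shmt2 at 479.5 ± 40.4 CPM. Aminoacyl-tRNA synthetases, which charge tRNAs with amino acids, had 23 lower, 1 higher and 8 not called of 32 tested (33 listed), at a median log2 of -0.50. Mars, the methionyl enzyme, had 159.9, 163 and 155 CPM in control and 70.5, 72.4 and 70.0 CPM in Hb+NTR1, and Gars, the glycyl enzyme, fell 1.96-fold from 552 ± 10.8 to 282 ± 6.68 CPM.

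An ATF4 site, searched as TGATGNAAN on either strand, was in 6 of 21 stress response genes with a promoter (28.6%) and in 5 of 23 synthetase genes (21.7%). It was in 1 of 12 genes of the serine and one-carbon list (8.33%), which was the proline synthesis gene Pycr1. The share was 2.68% of tested genes with a promoter and 4.50% of all genes with one. Capitals mark it in Trib3 (chr2:152344024-152344062, minus strand), Pycr1 (chr11:120643828-120643866, minus strand) and Gars (chr6:55037955-55037993, plus strand), which fell, and in Nupr1 (chr7:126625558-126625596, minus strand), which encodes a stress-induced nuclear protein and was not called.
Trib3: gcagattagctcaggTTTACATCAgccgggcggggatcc
Pycr1: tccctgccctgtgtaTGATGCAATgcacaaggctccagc
Gars: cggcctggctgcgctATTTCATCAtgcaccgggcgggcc
Nupr1: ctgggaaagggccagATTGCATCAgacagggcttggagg
The site stands in either orientation in these stretches.

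Genes of the translation machinery were lower with little exception. Of 46 cytosolic ribosomal protein genes tested (47 listed), 44 were lower, 0 higher and 2, Rpl30 and Rpl5, not called, with 13 at least 2-fold lower and a median log2 of -0.80. Rpl10a had 158, 148 and 134 CPM in control and 60.1, 60.3 and 54.6 CPM in Hb+NTR1, 2.51-fold lower (edgeR adjusted p = 8.53e-13). Rpl13a had 18.7, 18.0 and 14.4 CPM in control and 3.70, 3.79 and 3.76 CPM in Hb+NTR1, the largest fall of the list. Rps18 had 27.8, 22.2 and 22.6 CPM in control and 8.22, 9.83 and 8.98 CPM in Hb+NTR1, 2.69-fold lower. Ribosomal protein genes have many near-identical pseudogenes, between which reads may be split, so single levels are uncertain. The elongation factor Eef2 fell 1.67-fold, from 5126, 5085 and 5188 CPM to 2856, 3300.2 and 3050.4 CPM. Genes of ribosome assembly in the nucleolus had 30 lower, 2 higher and 4 not called of 36, at a median log2 of -0.54. Fbl, the rRNA methyltransferase fibrillarin, fell 2.40-fold from 68.6 ± 4.73 to 28.6 ± 3.07 CPM, and Mybbp1a, a nucleolar protein, fell 2.03-fold from 639.9 ± 10.9 to 316 ± 9.81 CPM. Myc, a regulator of these genes, fell 1.21-fold from 127 ± 3.72 to 105 ± 6.42 CPM (edgeR adjusted p = 0.00286).

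**Figure D3:**
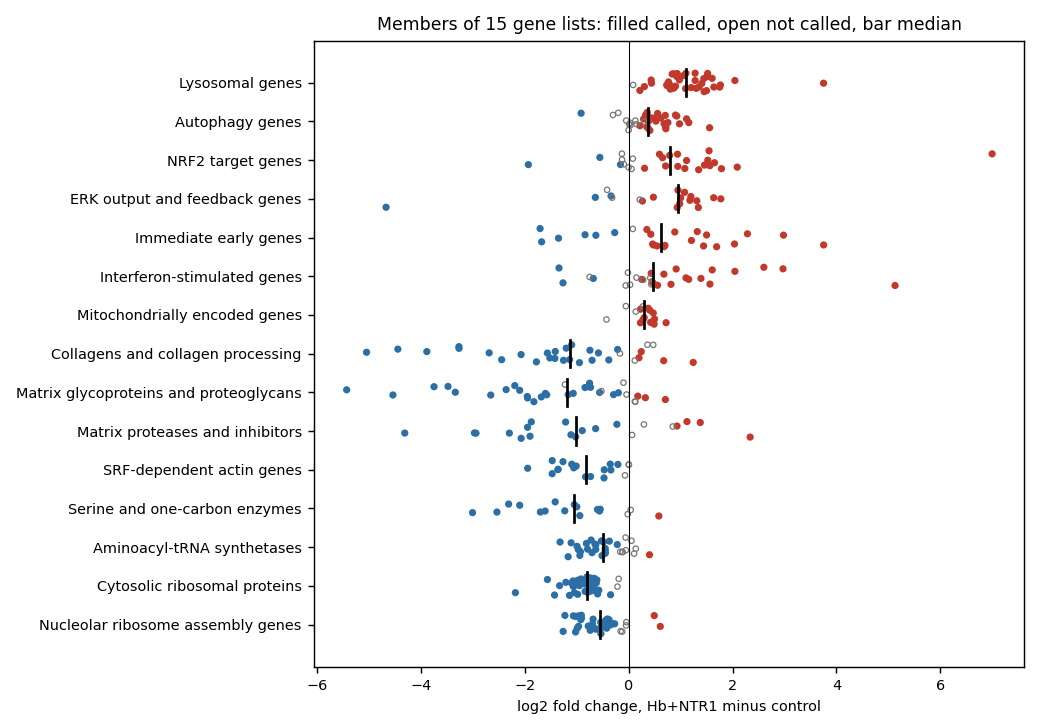
Log2 fold change of Hb+NTR1 over control for each tested member of 15 gene lists, 1 point per gene, filled where called (red higher, blue lower) and open where not, with a black bar at the median of each list. Lysosomal and ribosomal protein genes form narrow groups on opposite sides of 0, with medians of 1.10 and -0.80, while collagens spread down to -5.05. The isolated points at the far right of the NRF2 and interferon lists, Gsta3 and Rsad2, had at most 3 counts in any control library, and the sizes of their fitted changes are not bounds.

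Protein folding genes gave mixed results. Heat shock genes had 11 higher, 5 lower and 4 not called of 20 tested (21 listed), at a median log2 of 0.36. Hsp90aa1, the inducible cytosolic HSP90, had 1281, 1360.3 and 1304 CPM in control and 2215, 2267 and 2376 CPM in Hb+NTR1, a 1.74-fold rise. Hsph1, a nucleotide exchange factor of HSP70, rose 1.92-fold from 338 ± 6.04 to 648 ± 36.3 CPM. Chaperones and sensors of the endoplasmic reticulum were 8 higher, 8 lower and 7 not called of 23. Hspa5, the main chaperone there, was not called, with 1133 ± 2.39 CPM in control and 1114 ± 48.9 CPM in Hb+NTR1 (edgeR adjusted p = 0.762). Xbp1, a factor of the unfolded protein response, fell 2.69-fold from 146 ± 4.78 to 54.1 ± 3.22 CPM, and the sensor gene Atf6 rose 1.84-fold from 66.1 ± 0.873 to 121 ± 4.88 CPM. Of 36 proteasome subunits tested (37 listed), 21 were not called, 7 were higher and 8 lower.

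Mitochondrially encoded genes rose by small amounts. Of 15 tested, 11 were higher, 0 lower and 4 not called, at a median log2 of 0.30 and with 0 at least 2-fold changed. Their share of all counts was 5.01% ± 0.245 in control, 4.38% ± 0.220 with Hb and 6.42% ± 0.228 with Hb+NTR1. Of these, mt-Cytb, the cytochrome b of respiratory complex III, had 7919, 8739.7 and 8437 CPM in control and 11861, 11649 and 11906 CPM in Hb+NTR1, 1.41-fold higher (edgeR adjusted p = 7.22e-07). For the nuclear genes of oxidative phosphorylation, 22 of 40 were not called, 6 were higher and 12 lower. Glycolysis and hypoxia genes had 13 lower, 6 higher and 14 not called of 33 tested (35 listed). Ldha, lactate dehydrogenase A, had 828, 814 and 826 CPM in control and 346, 378 and 378 CPM in Hb+NTR1, 2.24-fold lower, and Tpi1, triosephosphate isomerase, fell 1.79-fold. Slc2a1, the glucose transporter GLUT1, rose 1.72-fold from 127 ± 5.89 to 219 ± 22.0 CPM.

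Lipid synthesis genes were lower more often than higher. Genes of cholesterol synthesis and uptake had 14 lower, 4 higher and 8 not called of 26, at a median log2 of -0.28. Pmvk, the phosphomevalonate kinase, had 50.3, 50.5 and 49.5 CPM in control and 15.6, 20.4 and 15.5 CPM in Hb+NTR1, 2.92-fold lower. Nsdhl, a later enzyme of the pathway, fell 2.12-fold from 147 ± 8.29 to 69.4 ± 3.41 CPM. Fatty acid synthesis genes had 11 lower, 3 higher and 5 not called of 19 tested (20 listed), at a median log2 of -0.36. Elovl6, a fatty acid elongase, fell 2.39-fold from 162 ± 0.904 to 67.7 ± 1.23 CPM, and Elovl5, which elongates polyunsaturated fatty acids, rose 1.63-fold from 138 ± 3.40 to 225 ± 4.81 CPM.

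The title of the series names neuronal apoptosis. Pro-apoptotic genes had 9 higher, 10 lower and 4 not called of 23 tested (26 listed), at a median log2 of -0.0090, and anti-apoptotic genes had 4 higher, 3 lower and 9 not called of 16 tested (17 listed), at a median of 0.042. Bcl2, which blocks release of cytochrome c (chr1:106538178-106714274, minus strand), had 7.29, 8.58 and 7.81 CPM in control and 15.8, 17.3 and 20.1 CPM in Hb+NTR1. It rose 2.25-fold (log2 fold change 1.17 ± 0.155, edgeR adjusted p = 5.65e-07), and the Hb mean was 7.67 ± 2.1 CPM. Bax, which permeabilizes mitochondria, had 30.5, 26.0 and 31.2 CPM in control and 21.0, 22.3 and 18.0 CPM in Hb+NTR1, a 1.43-fold fall (edgeR adjusted p = 0.000657). Hb lay on the other side of control for Bax, at 41.7 ± 7.21 CPM. Bbc3, the BH3-only gene PUMA, had 20.2, 21.5 and 18.0 CPM in control and 10.4, 10.7 and 8.35 CPM in Hb+NTR1, 2.03-fold lower. Tnfrsf10b, a death receptor, rose 2.1-fold from 32.8 ± 1.11 to 69.1 ± 0.05 CPM. Mcl1, a survival gene, was not called, with a log2 fold change of 0.09 ± 0.0653.

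Targets of p53 were higher more often than lower, while Trp53 fell. Of 26 p53 target list members tested (28 listed), 15 were higher, 6 lower and 5 not called, at a median log2 of 0.53. Cdkn1a, the cell cycle inhibitor p21, had 74.4, 81.2 and 85.1 CPM in control and 166, 199 and 181 CPM in Hb+NTR1, 2.27-fold higher, with 108 ± 6.17 CPM in Hb. Trp53inp1, a stress-induced p53 partner, rose 3.63-fold from 29.8 ± 2.47 to 108 ± 11.0 CPM. Trp53, which the list also holds, had 236, 236 and 229 CPM in control and 83.8, 86.5 and 91.5 CPM in Hb+NTR1, 2.68-fold lower (edgeR adjusted p = 1.61e-14). Of 41 DNA replication genes, 20 were lower, 11 higher and 10 not called, with 0 at least 2-fold changed. Of 32 mitotic genes, 11 were lower, 6 higher and 15 not called, with 3 at least 2-fold lower. The lower share of the mitotic list, 34.4%, was near the 32.2% of all genes tested, and its higher share was 18.8% against 31.4%. Mki67, the proliferation marker, had 1012, 1001 and 972 CPM in control and 908, 858 and 902 CPM in Hb+NTR1. Its libraries did not overlap, yet it missed the threshold (log2 fold change -0.16 ± 0.0768, edgeR adjusted p = 0.0701) and passed it under 6 of the 19 alternatives. Ccnb1, cyclin B1, was not called (edgeR adjusted p = 0.466), while Ccnb2, cyclin B2, fell 2.33-fold from 27.6 ± 1.18 to 11.8 ± 1.43 CPM. Ccnd1, cyclin D1, fell 1.27-fold and Cdk4, its kinase partner, 1.93-fold.

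Immediate early genes, which respond within minutes to growth signals or stress, were higher as a list. Of 24 tested (26 listed), 17 were higher, 6 lower and 1 not called, with 9 at least 2-fold higher and a median log2 of 0.61. Fosb, an AP-1 subunit (chr7:19302696-19310051, minus strand), had 3.01, 3.46 and 3.80 CPM in control and 44.0, 48.4 and 45.7 CPM in Hb+NTR1. It rose 13.5-fold (log2 fold change 3.75 ± 0.124, edgeR adjusted p = 1.08e-17), and Hb had 3.72 ± 0.263 CPM. Fos had 6.44, 7.25 and 10.8 CPM in control and 63.3, 73.3 and 55.2 CPM in Hb+NTR1, 7.89-fold higher. Btg2, an antiproliferative gene, rose 4.10-fold from 22.4 ± 3.27 to 91.7 ± 5.59 CPM, and Egr1, a zinc finger factor, rose 1.60-fold from 252 ± 9.71 to 404 ± 5.09 CPM. In Hb, Egr1 and Btg2 lay below control, at 165 ± 14.1 and 15.3 ± 0.319 CPM. Output and feedback genes of the kinase ERK had 13 higher, 3 lower and 3 not called of 19 tested (20 listed), at a median log2 of 0.95. The fall of Il1rl1, given above, is counted in that list. The phosphatase genes Dusp4 and Dusp5 rose 3.11-fold and 3.42-fold, with Dusp5 at 12.9, 13.8 and 12.4 CPM in control and 41.9, 44.9 and 47.2 CPM in Hb+NTR1. Etv5, an ETS factor, rose 2.48-fold from 14.7 ± 0.558 to 36.5 ± 3.96 CPM, and Hb was at 7.87 ± 0.771 CPM. Id1, a target of BMP signalling in the TGF-beta list, had the same order of groups, with 41.0 ± 3.73 CPM in Hb, 69.5 ± 1.58 CPM in control and 147 ± 15.6 CPM in Hb+NTR1.

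**Figure D4:**
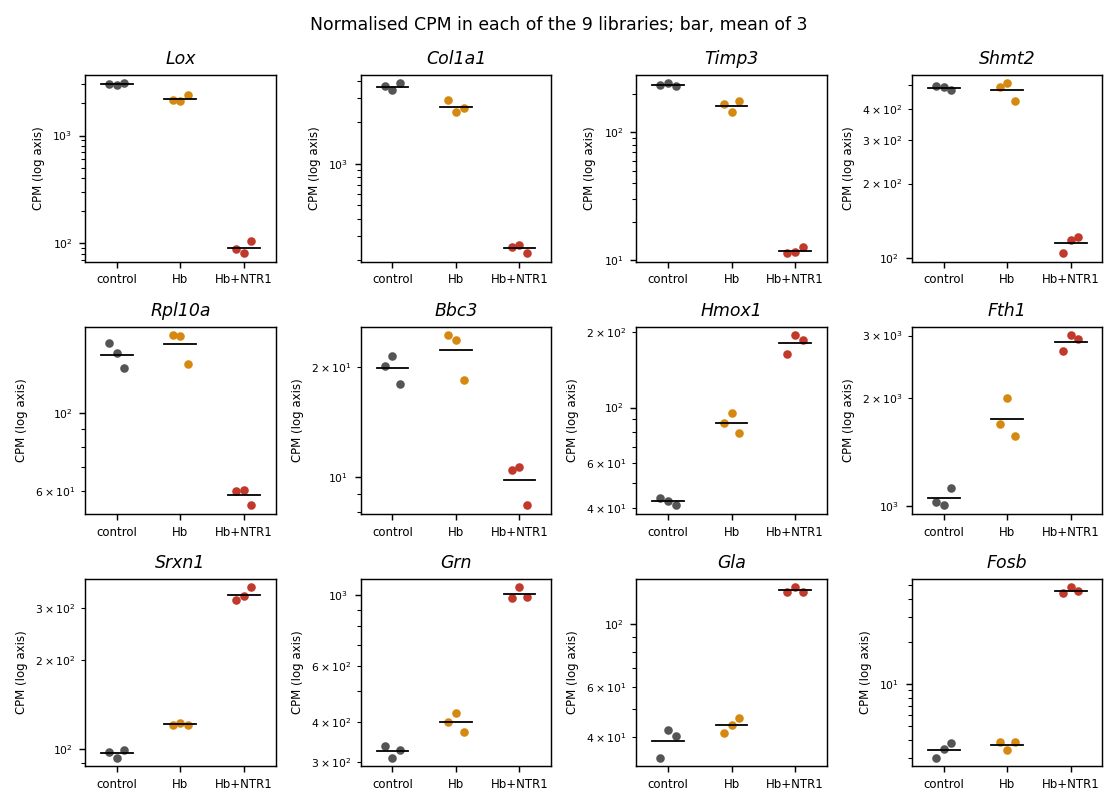
Normalised CPM of 12 genes in each of the 9 libraries on log axes, 1 point per library in control (grey), Hb (orange) and Hb+NTR1 (red), with a bar at the mean of 3. The 12 are called genes picked for display, and the libraries of both groups did not overlap in 69.9% of all genes tested. In each panel the 3 Hb+NTR1 libraries lie apart from the 3 control libraries. They lie below them for Lox, Col1a1, Timp3, Shmt2, Rpl10a and Bbc3 and above them for Hmox1, Fth1, Srxn1, Grn, Gla and Fosb.

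Immune genes moved in both directions. Interferon-stimulated genes had 17 higher, 3 lower and 8 not called of 28 tested (34 listed), at a median log2 of 0.46. Rsad2, the antiviral protein viperin, had 3, 0 and 2 counts in control and 57, 59 and 62 counts in Hb+NTR1, and the control counts are too few for a fold. Gbp3, a guanylate-binding protein, had 2.35, 2.53 and 2.72 CPM in control and 15.1, 15.8 and 15.2 CPM in Hb+NTR1, with the same limit on near-identical relatives as Gbp4. Isg15, a ubiquitin-like interferon target, fell instead, 2.40-fold from 9.66 ± 1.98 to 4.03 ± 0.730 CPM, and Ifit3 was not called (edgeR adjusted p = 0.297). Genes of MHC class I presentation had 4 higher, 2 lower and 8 not called of 14 tested (18 listed). Erap1, the peptidase that trims peptides, rose 2.89-fold from 38.7 ± 2.1 to 112 ± 6.18 CPM, and Tapbp, tapasin, rose 2.26-fold. The members that fell, Calr and Psme1, had log2 fold changes of -0.47 and -0.64. NF-kB and inflammatory genes had 7 higher, 12 lower and 4 not called of 23 tested (32 listed). Ccl2, a monocyte chemokine, had 13.3, 11.9 and 9.31 CPM in control and 33.3, 36.6 and 34.5 CPM in Hb+NTR1, 3.01-fold higher. Vcam1, a leukocyte adhesion molecule, had 139, 133 and 143 CPM in control and 31.3, 31.3 and 31.8 CPM in Hb+NTR1, 4.39-fold lower. Csf1, the macrophage growth factor, fell 2.90-fold from 491 ± 28.6 to 169 ± 11.4 CPM.

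Itga11, the integrin alpha subunit that binds fibrillar collagen and the gene in the title (chr9:62677826-62783982, plus strand), was measured at low counts. Control libraries held 32, 23 and 20 counts of it, Hb libraries 18, 21 and 19, and Hb+NTR1 libraries 6, 6 and 1. In CPM it went from 1.63 ± 0.262 in control to 0.301 ± 0.200 in Hb+NTR1, a fall of 2.41 ± 0.460 on the log2 scale (edgeR adjusted p = 7.78e-05), with no overlap of libraries. Hb was at 1.37 ± 0.0882 CPM and was not called against control (edgeR adjusted p = 0.788). Of 19 integrin and collagen receptor genes tested (27 listed), 8 were higher, 7 lower and 4 not called. Itgb4, the laminin receptor subunit of hemidesmosomes, had 13.1, 10.5 and 12 CPM in control and 1.03, 1.76 and 2.09 CPM in Hb+NTR1, 7.28-fold lower. Itgb7, a subunit known from lymphocytes, went from 11.5 ± 1.20 to 4.93 ± 1.09 CPM, with 26.0 ± 3.87 CPM in Hb. Itgb1, the beta subunit that pairs with Itga11, rose 1.47-fold from 896 ± 32.2 to 1313 ± 69.4 CPM, and Itgav, a vitronectin receptor subunit, rose 1.72-fold. Of 24 axon guidance genes tested (34 listed), 15 were lower, 5 higher and 4 not called, at a median log2 of -0.41. Beside Unc5c, the secreted semaphorin Sema3b fell 4.62-fold from 19.8 ± 0.824 to 4.28 ± 0.718 CPM, and Ntn1, the ligand of Unc5c, had 31, 29 and 19 counts in control and 2, 4 and 2 in Hb+NTR1, too few there for a fold.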

How the data were processed

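The labels' protocols describe poly(A)-selected libraries, and the tools listed in the submitters' processing notes are HISAT2 2.1.0 and bcl2fastq 2.19.1.403, with HTSeq 0.10.0 and build GRCm38. For annotation release, strand and multi-mapping reads nothing is given in the sources used here. The deposited table holds raw counts per gene symbol for 9 libraries. Of its 54232 entries, 98 exact repeats were removed, and 26 symbols had been turned into dates and are not named. N columns were taken as the group labelled ganyu, here Hb+NTR1. The reason is that in the deposited comparison of that group with control the count columns begin with N or C. The test results of that comparison were not used.

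The test was run in edgeR 4.0.16 under R 4.3.3 (filterByExpr with minimum count 10, TMM factors, robust quasi-likelihood fit of all 9 libraries with group as the term, two-sided F tests). P-values were adjusted by Benjamini-Hochberg over 13810 genes, with a threshold of 0.05. The common biological coefficient of variation was 6.90%. The SE is the size of the log2 fold change over the square root of F. The fit was also run on simulated data in which only a small share of genes was changed. That setting differs from these data, where most genes were called, so nothing is drawn from it here. A count of 0 allows up to 3 counts, or 0.178 to 0.224 CPM. Genes at or under that level in a group get no fitted fold.

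The rule for naming genes took, by log2 fold change, 15 rises and 15 falls among called genes whose higher mean was at least 5 CPM and whose libraries did not overlap (without clone-like symbols), 8 rises and 8 falls by change in CPM, up to 5 called members of each list, and a set for the title gene, heme, death and growth. Some genes picked by it are not reported here. Other list members, not called or named for their role, were chosen after their values were seen. The comparison, its lists and the rule were chosen with earlier results of these data known. Gene positions are from GENCODE M21 on GRCm38. Same-numbered libraries of both groups did not deviate together (correlations of 0.054, -0.033 and 0.0066 across genes), so numbers were not taken to pair samples. The 19 alternatives were other scalings, other filters on low counts, DESeq2 1.42.0, only the 6 libraries compared, a replicate block, no mitochondrially encoded genes, a 1.5-fold threshold, and each library left out in turn.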

Additional observations from a re-analysis of the deposited data

How the results depend on the processing

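The 8782 genes called became 2891 with a tested threshold of 1.5-fold in edgeR (glmTreat), 1274 higher and 1617 lower. Under the other settings that keep all 9 libraries or drop the Hb group, the count was 8493 by DESeq2 and 8540 to 9255 otherwise. Leaving out 1 library at a time gave 8006 to 9358 calls, the highest without Hb replicate 2. In none of the 19 alternatives did a called gene reverse sign. With the replicate number as a block, 8898 genes were called, 8736 of the original calls among them, but the numbers do not pair the libraries, since control replicates 2 and 3 each correlated more closely with a differently numbered library. Scaling by library totals alone moved the median of all genes by 0.063 and the higher share of calls from 49.4% to 55.1%. Of 230 called genes named by the rule, 187 kept their call in every alternative, and 38 lost it only with the 1.5-fold threshold. The call of Mki67 was gained under upper quartile factors, no filter, only the 6 libraries, the block, and without Hb replicate 1 or 2, and Mcl1 was called with library totals. Counts of 0 to 4 per library in a group limit Reps2, Rsad2, Slc40a1 and Ntn1, and counts of 1 to 7 limit the fold of Unc5c.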

Other observations

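Classes of transcripts differed in how many genes were called. Over all genes tested, 31.4% were higher and 32.2% lower. Of 939 long noncoding genes tested, 181 (19.3%) were higher and 242 (25.8%) lower, both under those shares. Of 876 pseudogenes, 107 (12.2%) were higher and 300 (34.2%) lower, at a median log2 fold change of -0.25. Their lower share was thus near that of all genes, and their higher share was under it. Reads of a pseudogene can also map to its parent gene, so single levels are uncertain. Among protein-coding genes in 3 equal groups by exon length, 26.9% of the shortest were higher and 37.3% lower, against 40.7% higher and 29.7% lower of the longest. The number of genes with at least 1 count was 20926 to 21625 in Hb+NTR1 and 19870 to 19935 in control.

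Clock genes were split, with 7 higher, 6 lower and 2 not called of 15 tested (19 listed). Per2, a repressor of the clock, had 6.08, 5.78 and 5.30 CPM in control and 1.23, 1.69 and 0.835 CPM in Hb+NTR1, 4.56-fold lower (edgeR adjusted p = 1.28e-06). Bhlhe40, another repressor, rose 2.53-fold from 42.2 ± 0.724 to 107 ± 4.66 CPM, and Arntl, the activator BMAL1, fell 1.96-fold from 32.9 ± 0.820 to 16.8 ± 1.54 CPM. Outside all lists, Serpini1, the neuronal protease inhibitor neuroserpin, rose 9.56-fold from 0.748 ± 0.217 to 7.21 ± 1.54 CPM, and S1pr3, a sphingosine-1-phosphate receptor, had 22.0, 17.0 and 20.9 CPM in control and 0.822, 0.843 and 0.835 CPM in Hb+NTR1, 23.8-fold lower. Ly6a, the surface antigen SCA-1 of mesenchymal and other progenitors, fell 22.9-fold from 99.7 ± 8.30 to 4.36 ± 0.458 CPM, with 136 ± 12.7 CPM in Hb.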
